A study of Mus musculus with 12 samples.

Results

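The genes described here encode the protein subunits of the mitochondrial ribosome. They were taken as every protein-coding gene of the deposited tables whose mouse Ensembl identifier carried, in GENCODE M21, a symbol beginning with Mrpl or Mrps and a number. This gave 77 of 33906 genes, 48 with an Mrpl symbol and 29 with an Mrps symbol, spread over 17 chromosomes. All 77 passed the filter on low values, which left 18118 genes of the tables for testing. Values were FPKM, fragments scaled to exon length and library size, from 12 libraries of 1 mouse each. The RNA was described as from mouse lumbar spinal cord.

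The healthy group, H, was wild type (libraries H1, H2 and H4). The other 9 libraries came from mice of a model of amyotrophic lateral sclerosis (ALS), a disease in which motor neurons are lost. Group P was fed phosphate-buffered saline (PBS; P66, P67 and P74) and was the negative control of the study. Group C was treated with manganese-doped carbon dots (Mn@CDs; C79, C84 and C85), a nanozyme, that is, a particle with enzyme-like activity, here like that of superoxide dismutase. Group E (E75, E77 and E90) was read as the group treated with edaravone, a radical scavenger used as an ALS drug. The text of the series lists E among its group codes but describes edaravone under the code D, so E was assigned by elimination. The allele or transgene of the model, the strain, age and sex of the mice, the doses and the length of treatment were not stated in the sources used. Whether the healthy mice were also fed PBS is not given either, so genotype and feeding cannot be told apart between H and P.

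Mitochondrial ribosomes translate the few proteins encoded by mitochondrial DNA, all of them core subunits of the respiratory chain and ATP synthase. Their ribosomal RNAs come from the mitochondrial genome, whereas every protein subunit is encoded in the nucleus, made in the cytosol and imported. Some subunits descend from proteins of the bacterial ribosome and others are specific to mitochondria. Neurons depend heavily on oxidative phosphorylation, and mitochondrial damage in motor neurons is a known feature of ALS models.

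Of the 77 genes, 50 encoded proteins of the large subunit, which forms the peptide bond and holds the exit tunnel. Another 26 encoded proteins of the small subunit, which binds and decodes the mRNA. Symbols do not always show the subunit: the products of Mrps18a and Mrps30 sit in the large subunit. The product of Mrps36 is now known as a component of the 2-oxoglutarate dehydrogenase complex and was put in neither subunit. Among the ribosomal subunits proper, 45 have a bacterial counterpart and 31 are specific to mitochondria. Mrpl53 was not analysed here.

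Promoters of the 6 genes that passed the test between P and H are shown as examples, because promoters of this class share short motifs. Each window runs from 250 bases before to 50 bases after the gene start in the RefSeq promoter table (GRCm38.p6) and is written 5′ to 3′ on the strand of the gene. Capitals mark matches to short motifs of GABPA (an ETS factor), NRF1 and YY1, factors known to drive nuclear genes of mitochondria. The windows are chr7:78783040-78783339 on the minus strand for Mrpl46, chr8:71464676-71464975 on the plus strand for Mrpl34, chr7:28741772-28742071 on the minus strand for Mrps12, chr2:130563507-130563806 on the plus strand for Mrps26, chr5:31613701-31614000 on the plus strand for Mrpl33 and chr16:92058086-92058385 on the plus strand for Mrps6.
Mrpl46: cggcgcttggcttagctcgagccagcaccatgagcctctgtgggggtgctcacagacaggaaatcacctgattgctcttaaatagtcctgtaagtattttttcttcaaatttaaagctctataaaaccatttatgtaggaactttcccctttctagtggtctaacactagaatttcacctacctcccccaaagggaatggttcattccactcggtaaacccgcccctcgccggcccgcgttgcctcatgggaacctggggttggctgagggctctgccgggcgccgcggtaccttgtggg
Mrpl34: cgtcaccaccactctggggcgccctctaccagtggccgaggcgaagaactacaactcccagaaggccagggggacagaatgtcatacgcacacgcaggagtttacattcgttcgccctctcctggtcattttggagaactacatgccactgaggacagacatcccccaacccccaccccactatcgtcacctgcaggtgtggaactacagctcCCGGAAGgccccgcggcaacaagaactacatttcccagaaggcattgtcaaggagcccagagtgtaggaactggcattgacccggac
Mrps12: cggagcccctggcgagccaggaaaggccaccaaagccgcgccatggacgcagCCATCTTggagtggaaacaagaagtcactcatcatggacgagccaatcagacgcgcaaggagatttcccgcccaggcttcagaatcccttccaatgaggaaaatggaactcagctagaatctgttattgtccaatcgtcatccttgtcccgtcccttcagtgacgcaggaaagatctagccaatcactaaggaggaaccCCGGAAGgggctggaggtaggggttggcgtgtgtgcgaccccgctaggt
Mrps26: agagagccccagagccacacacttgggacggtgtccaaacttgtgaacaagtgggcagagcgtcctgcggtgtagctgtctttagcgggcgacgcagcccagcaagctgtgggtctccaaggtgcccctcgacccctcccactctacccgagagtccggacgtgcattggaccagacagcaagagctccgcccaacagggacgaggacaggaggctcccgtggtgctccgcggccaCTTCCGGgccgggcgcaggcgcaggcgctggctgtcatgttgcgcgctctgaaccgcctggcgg
Mrpl33: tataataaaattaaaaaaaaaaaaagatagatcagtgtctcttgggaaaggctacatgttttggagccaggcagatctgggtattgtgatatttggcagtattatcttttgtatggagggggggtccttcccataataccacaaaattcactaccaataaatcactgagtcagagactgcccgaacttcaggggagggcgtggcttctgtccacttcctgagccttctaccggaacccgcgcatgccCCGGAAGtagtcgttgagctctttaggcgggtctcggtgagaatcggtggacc
Mrps6: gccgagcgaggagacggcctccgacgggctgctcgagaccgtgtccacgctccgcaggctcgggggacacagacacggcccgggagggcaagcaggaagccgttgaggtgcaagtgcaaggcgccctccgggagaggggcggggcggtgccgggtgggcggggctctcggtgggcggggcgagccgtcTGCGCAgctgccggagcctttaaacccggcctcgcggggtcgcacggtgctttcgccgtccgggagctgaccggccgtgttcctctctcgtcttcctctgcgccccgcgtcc

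RefSeq windows were found for 68 of the 77 genes. The letters searched on both strands were CCGGAAG for ETS factors such as GABPA, TGCGCA for a half-site of NRF1 and AAGATGG for the core of YY1, which share no overlap with each other in the windows shown. The ETS letters occurred in 23 of the 68 windows (33.8%), against 14.9% of the 15112 windows of tested protein-coding genes and 8.86% of all 32851 windows of that length. The NRF1 letters occurred in 21 windows (30.9%, against 12.3% and 7.76%), and the YY1 letters in 13 (19.1%, against 6.47% and 6.34%). At least 1 of the motifs was present in 42 windows (61.8%, against 29.3% and 20.4%). Among the 6 genes shown, Mrpl34, Mrps12, Mrps26 and Mrpl33 had 1 ETS match each, Mrps12 also had 1 YY1 match and Mrps6 had 1 NRF1 match, whereas none of these letters were in the window of Mrpl46. Of the 4 with an ETS match, 3 were lower in P and 1, Mrpl33, was higher. The window of Mrpl46 shares 141 bases with that of Mrps11, its neighbour on the opposite strand, whose own window holds the YY1 letters. Longer letters for NRF1 and YY1 were searched first and matched fewer members, and the shorter letters were chosen after that was seen. Members have 1 window each, whereas other genes may have several. Exact letter matches are a description and not binding sites.

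Reads recovered from the FPKM values came to 16.8 M to 19.8 M a library, and 1 read in a gene of 1 kb of exon was worth 0.0542 to 0.0643 FPKM. The recovered reads summed to 106.6 to 108.0% of the library total that this scaling implies, so they are approximate, and the reason was not tested. Single members were covered by 24 to 1255 recovered reads in a library. All 6 neuron markers, 4 astrocyte markers, 4 oligodendrocyte markers and 5 microglia markers were above 1 FPKM in each of the 12 libraries, so the defining markers of cord tissue were present. The summed FPKM of the astrocyte markers was 626 to 740.5 in H and 1402 to 2733 in the ALS-model libraries, and that of the microglia markers 68.3 to 80.6 and 143 to 296. Neuron markers summed to 573 to 664 in H and 369 to 536 in the ALS-model libraries. Erythroid markers summed to 402 to 2577 and 107 to 388, and meningeal fibroblast markers to 4.94 to 20.9 and 38.6 to 230.2. Each of these sums was without overlap. Within the neuron list only Snap25, the larger part of the sum, and Stmn2 were without overlap. Gad2 was at 14.1 to 16.6 FPKM in H and 12.4 to 21.5 in the ALS-model libraries. The mean log2(FPKM + 1) of the 6 neuron markers overlapped, at 5.64 to 5.88 and 5.18 to 5.77. Schwann cell markers were at 163 to 433 in E and 1.14 to 107 in the other groups. Endothelial markers summed to 28.6 to 35.6 in H, 28.1 to 31.1 in P, 35.3 to 42.7 in C and 32.3 to 42.3 in E. Oligodendrocyte markers summed to 3578 to 4606 in H, 3261 to 3517 in P, 3691 to 3912 in C and 2391 to 3110 in E. For both sets neither C nor E overlapped with P. The summed motor neuron markers, none of the 6 listed at 0 in any library, were 57.8 to 127 in H and 30.0 to 60.5 in the ALS-model libraries. H1 had 2452 FPKM of 9 skeletal muscle markers, against 46.7 to 334 in the others, in 3 of which 1 marker (Myh4) was listed at 0. Of 8 caudal Hox genes, 5 were listed at 0 in H4 and in C84 and 4 in P66, against 0 to 2 elsewhere. Hoxd10 was at 0.0318 FPKM in H4, 0 in C84 and 0.351 in P66, against 3.40 to 24.0 elsewhere. These markers thus did not bear out a shared lumbar level for all 12 libraries, and the level sampled was not tested. The part of these differences in the results below was not tested except where a value without a library is given. In bulk tissue, fewer cells of a type and less RNA per cell cannot be told apart.

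Levels of the family lay in a middle range. The median member had a mean of 9.79 FPKM over the 12 libraries, against 4.26 for all genes tested. Mrpl41 of the large subunit was highest, at 36.5 FPKM, followed by Mrps21 of the small subunit (26.4) and Mrpl28 of the large subunit (22.0). Mrpl33 (0.952), Mrps30 (1.95) and Mrps35 (2.16) were lowest. These levels are per length of the union of all annotated exons, which was 7326 bases for Mrpl33, a gene whose protein is among the smallest of the ribosome, and the 3 lowest genes had the longer exon unions (6666 bases or more).

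The family varied somewhat less over the 12 libraries than all genes did. The median coefficient of variation over the 12 libraries was 13.9%, against 17.8% for all genes tested. This spread includes differences between groups, and genes of matched level were not compared. Mrpl37 of the large subunit varied least (4.47%), and Mrps18c of the small subunit, with 24 to 68 reads a library, varied most (34.3%). The union of exons was shorter than for other genes, with a median of 2533 against 3931 bases (range 607 to 8631), and the GC content of transcripts was close to that of all genes (medians 49.7% and 49.4%).

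Comparing P with H asks how the ALS-model cord differs from the healthy one. Most genes of the mitochondrial ribosome had lower fitted values in P, by a small amount. The fitted change was below 0 for 58 of the 77 (75.3%), against 38.6% of all genes tested, and the median change was -0.19 on the log2(FPKM + 1) scale, against 0.07 over all genes. Few single genes passed: 4 fell (Mrpl34, Mrps12, Mrpl46 and Mrps26) and 2 rose (Mrps6 and Mrpl33) by limma at a Benjamini-Hochberg adjusted p under 0.05. These 6 were 7.79% of the family, below the 15.5% called among all genes. By direction, 5.19% of the family fell, against 3.26% of all genes, and 2.60% rose, against 12.2%.

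At an unadjusted p under 0.05 by the same test, 22 members were lower (28.6%, against 9.13% of all genes) and 4 higher (5.19%, against 23.6%). All 3 values of P lay below all 3 of H for 30 members (39.0%, against 8.88% of all genes), and above them for 6 (7.79%, against 26.4%). With 3 mice a group, an exact permutation test of a single gene cannot go below p = 0.1. The changes ranged from -0.76 to 0.75.

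The count of calls depended on the scaling and on single libraries. With median-ratio scaling 16 genes fell and 0 rose (20.8% called, against 14.5% of all genes in that fit), and the median change was -0.29, against -0.00131 over all genes. With trends of exon length and GC removed from each library 12 fell and 1 rose, and the share called (16.9%) was near that of all genes (15.8%). The count was 1 without H2, 3 without H4, 1 without P66, 2 without P67 and 13 without C84, a library of another group that entered through the shared estimate of the spread. Without H1, the library with the muscle markers, 7 passed. The median change stayed between -0.21 and -0.12 over the fits that left out 1 library.

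**Figure D1:**
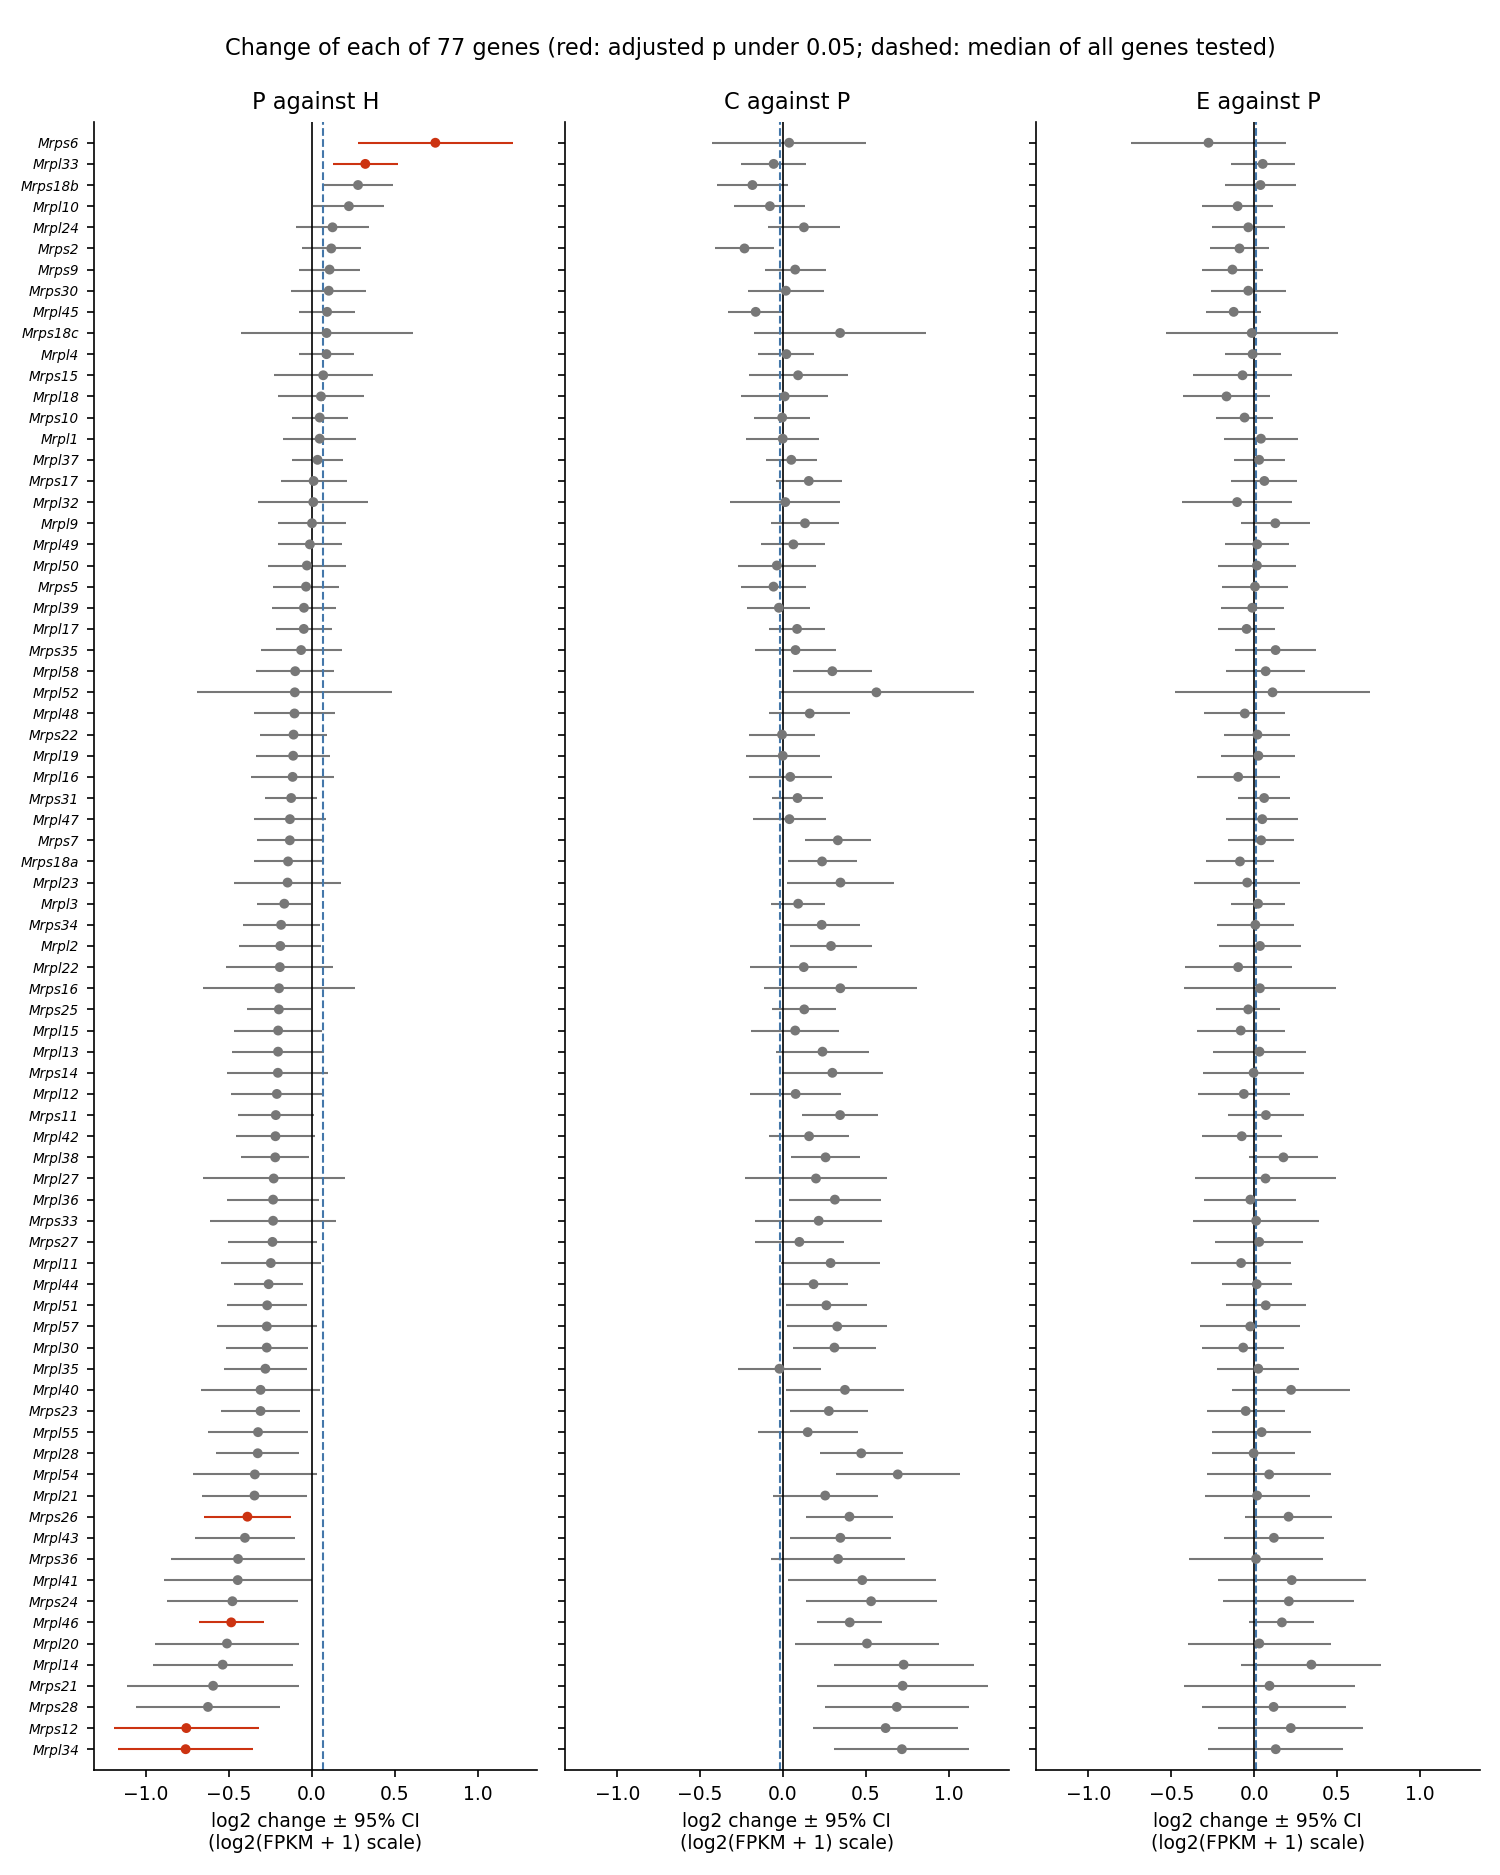
Fitted log2 change of each of the 77 genes in 3 comparisons, P against H (left), C against P (middle) and E against P (right; x axes, log2(FPKM + 1) scale, points with 95% confidence intervals from limma), ordered by the change in P against H. Red marks an adjusted p under 0.05, the solid line 0 and the dashed line the median of all 18118 genes tested. In P against H 58 genes lie below 0, in C against P 64 lie above 0, and in E against P 46 lie above 0 with small changes.

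Mrpl46 encodes a large-subunit protein specific to mitochondria. Its gene (ENSMUSG00000030612) spans chr7:78775236-78783531 on the minus strand. It was at 16.0, 16.8 and 17.3 FPKM in H1, H2 and H4, at 10.3, 12.1 and 12.6 in P66, P67 and P74, at 16.9, 14.4 and 15.9 in C79, C84 and C85, and at 13.4, 12.4 and 13.9 in E75, E77 and E90. All P libraries were below all H libraries, C lay above P without overlap, and E lay between, its lowest value within the range of P. The change from H to P was -0.49 ± 0.09 (log2, SE; means 16.7 ± 0.677 and 11.7 ± 1.19 FPKM, SD, n = 3 each; limma, Benjamini-Hochberg adjusted p = 0.00586). Mrpl46 passed in each of the 19 alternative fits (adjusted p from 0.00285 to 0.0311 by limma).

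Mrpl34 encodes a small large-subunit protein with a bacterial counterpart. The gene (ENSMUSG00000034880, chr8:71464959-71465747, plus strand) has the shortest exon union of the family, 607 bases. It was at 22.5, 26.4 and 28.7 FPKM in H1, H2 and H4, at 12.4, 17.3 and 15.02 in P66, P67 and P74, at 30.1, 18.3 and 28.1 in C79, C84 and C85, and at 19.7, 14.1 and 15.4 in E75, E77 and E90. H and P did not overlap, C79 and C85 were at the level of H, and C84 lay just above the highest P value. The change from H to P was -0.76 ± 0.19 (limma, Benjamini-Hochberg adjusted p = 0.0209). It lost the call with no filter and without H2, H4 or P66 (highest adjusted p 0.0973 by limma).

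Mrps12 encodes the small-subunit protein at the decoding centre, the counterpart of bacterial S12. The gene (ENSMUSG00000045948) spans chr7:28739641-28741820 on the minus strand. It was at 16.9, 23.9 and 24.4 FPKM in H1, H2 and H4, at 9.98, 13.6 and 13.7 in P66, P67 and P74, at 22.3, 14.6 and 22.4 in C79, C84 and C85, and at 18.1, 12.8 and 13.1 in E75, E77 and E90. H and P did not overlap, and H1 was the lowest H library. The change from H to P was -0.76 ± 0.20 (limma, Benjamini-Hochberg adjusted p = 0.0276). The call was lost with no filter and without H2, H4, P66 or P67 (highest adjusted p 0.122 by limma).

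Mrps26 encodes a small-subunit protein specific to mitochondria. The gene (ENSMUSG00000037740) spans chr2:130563742-130568695 on the plus strand. It was at 5.82, 6.82 and 7.55 FPKM in H1, H2 and H4, at 4.32, 5.61 and 4.79 in P66, P67 and P74, at 7.17, 6.02 and 7.17 in C79, C84 and C85, and at 6.71, 5.16 and 5.61 in E75, E77 and E90. H and P did not overlap, but the lowest H value was close to the highest P value. The change from H to P was -0.39 ± 0.12 (limma, Benjamini-Hochberg adjusted p = 0.0497). This call was lost in 11 of 19 alternatives, among them every fit that left out H2, H4 or a P library (adjusted p from 0.01997 to 0.184 by limma).

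Mrps6 encodes the small-subunit counterpart of bacterial S6 and was the gene that rose most. The gene (ENSMUSG00000039680) spans chr16:92058270-92112227 on the plus strand. It was at 12.6, 14.9 and 16.4 FPKM in H1, H2 and H4, at 34.0, 24.1 and 19.2 in P66, P67 and P74, at 24.8, 19.8 and 34.6 in C79, C84 and C85, and at 21.7, 18.1 and 22.0 in E75, E77 and E90. Every ALS-model library was above every healthy one, and P and C each spread widely. The change from H to P was 0.75 ± 0.21 (limma, Benjamini-Hochberg adjusted p = 0.0366), and the call was lost in 8 of 19 alternatives (adjusted p up to 0.154 by limma), including median-ratio scaling and the fits without H1, H2, P66, P67 or C79. In the annotation 159 exon bases of Mrps6 (10.4%) are also exons of Slc5a3 on the same strand, the gene of a myo-inositol transporter, which rose by 0.82 ± 0.14 (limma, Benjamini-Hochberg adjusted p = 0.00401). Another 305 bases (19.9%) are shared with the protein-coding model Gm49711, for which no FPKM is listed. The share of reads that such models exchange was not tested.

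Mrpl33 encodes a small large-subunit protein with a bacterial counterpart. The gene model (ENSMUSG00000106918) spans chr5:31596935-31664384 on the plus strand, and the RefSeq start used for its promoter lies inside that span. It was at 0.529, 0.655 and 0.750 FPKM in H1, H2 and H4, at 0.989, 1.14 and 1.04 in P66, P67 and P74, at 0.958, 0.918 and 1.05 in C79, C84 and C85, and at 1.01, 1.29 and 1.10 in E75, E77 and E90. All 9 ALS-model values were above the 3 healthy ones. The change from H to P was 0.32 ± 0.09 (limma, Benjamini-Hochberg adjusted p = 0.0322) on 65 to 170 reads a library, and at this level log2(FPKM + 1) understates a change. With a pseudocount of 0.1 in place of 1 the change was 0.64 ± 0.18. Its call was lost in 9 of 19 alternatives, among them median-ratio scaling and the fits without H1, H2, P66 or P67 (adjusted p up to 0.127 by limma).

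The next genes with higher values in P did not pass. Mrps18b, whose product lies in the small subunit, was at 2.70 ± 0.210 FPKM in H and 3.50 ± 0.396 in P (SD, n = 3 each; change 0.28 ± 0.10, limma, Benjamini-Hochberg adjusted p = 0.0731). Without P74 it passed (adjusted p = 0.0469 by limma). Mrpl10, of the stalk of the large subunit that recruits translation factors, was at 16.5 ± 1.04 and 19.5 ± 1.32 FPKM (change 0.22 ± 0.10, limma, Benjamini-Hochberg adjusted p = 0.136).

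**Figure D2:**
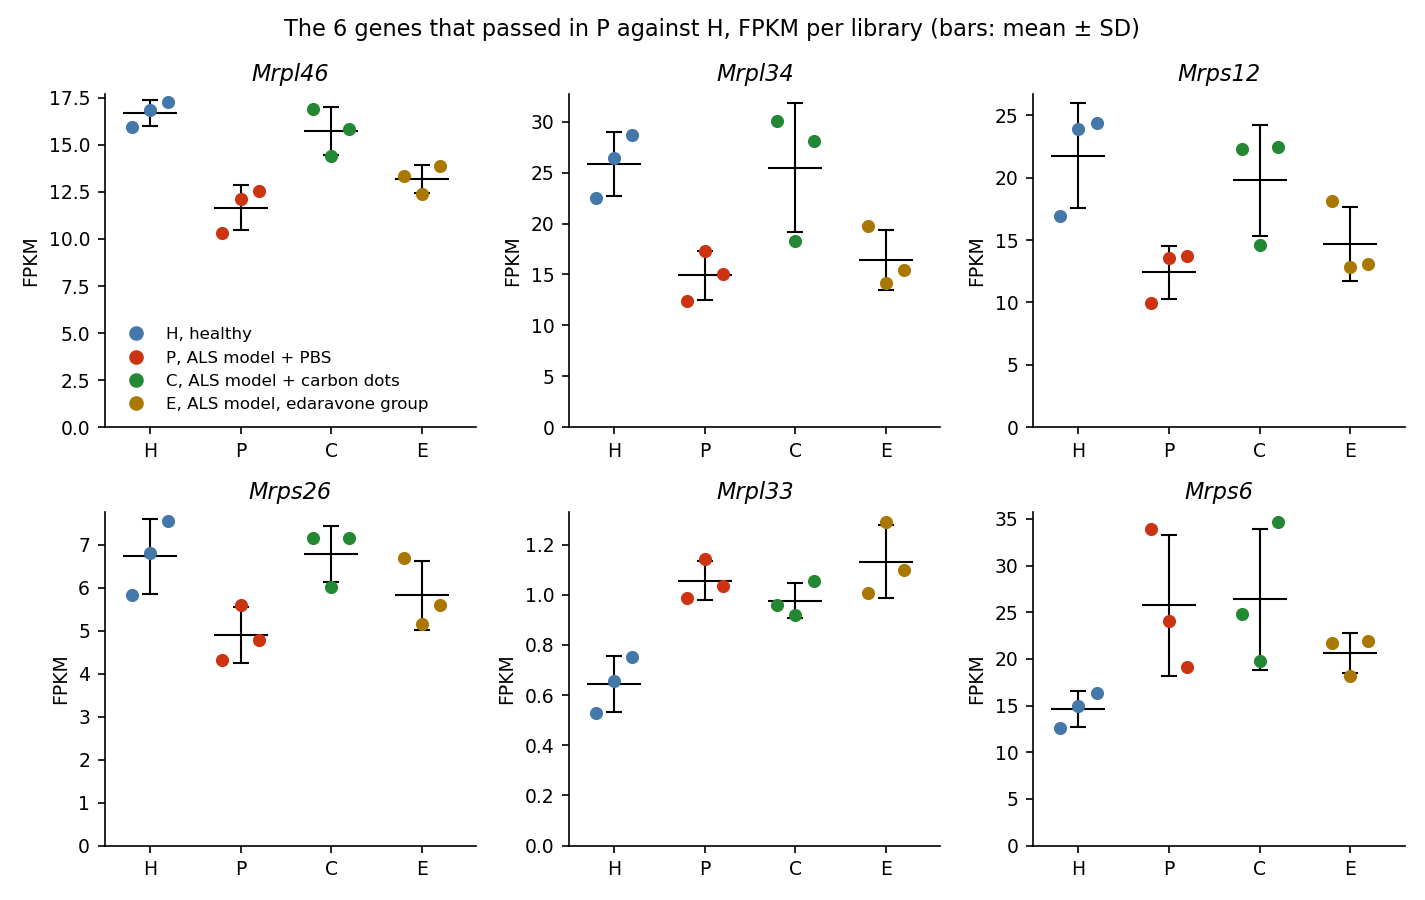
FPKM of the 6 genes that passed in P against H, 1 point per mouse with the group mean and SD (y axes in FPKM, starting at 0; groups H, P, C and E on the x axes). Mrpl46, Mrpl34, Mrps12 and Mrps26 are lower in P than in H and have C values at or near H in C79 and C85; Mrpl33 and Mrps6 are above H in all 9 ALS-model mice.

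Large and small subunit genes had similar medians in P against H. The median change was -0.19 for the 50 large-subunit genes, of which 39 were below 0 and 2 fell and 1 rose. For the 26 small-subunit genes it was -0.16, with 18 below 0, 2 that fell and 1 that rose. Genes of mitochondria-specific subunits had a median of -0.20 (27 of 31 below 0), and those with a bacterial counterpart -0.17 (30 of 45 below 0). Within the small subunit these medians were -0.19 for 10 mitochondria-specific genes and -0.08 for 16 with a bacterial counterpart. Differences between these classes were not tested.

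Members tended to be high or low in the same libraries. Over the 77 genes, the mean of log2(FPKM + 1) in H1, H2 and H4 was 3.21, 3.39 and 3.43. In P66, P67 and P74 it was 3.14, 3.20 and 3.21. It was 3.50, 3.19 and 3.49 in C79, C84 and C85, and 3.25, 3.16 and 3.19 in E75, E77 and E90. H1 and C84 thus sat at the level of P and E, whereas H2, H4, C79 and C85 were higher. The group means were 3.34 ± 0.116 in H, 3.18 ± 0.0404 in P, 3.39 ± 0.174 in C and 3.20 ± 0.0476 in E (SD, n = 3 each).

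C79 and C85 were both above C84 for 66 of 77 genes (85.7%), against 33.3% of all genes tested. They were both above every P and E library for 47 genes (61.0%, against 10.6%). C84 lay within the range of the 6 P and E libraries for 56 of 77 genes (72.7%), about the share of all genes (73.2%). H2 and H4 were both above H1 for 59 genes (76.6%, against 37.4%). P66 had the lowest value of the 12 libraries for 26 genes (33.8%, against 14.9% of all genes) and H1 for 17 (22.1%, against 18.7%). C85 had the highest for 22 (28.6%, against 7.9%) and C79 for 15 (19.5%, against 5.89%). These counts describe libraries and were not tested, because members measured in 1 library share its RNA and depth.

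With the trends of exon length and GC removed from each library, the means became 3.30, 3.43 and 3.43 in H1, H2 and H4. They were 3.14, 3.19 and 3.23 in P66, P67 and P74, 3.45, 3.18 and 3.43 in C79, C84 and C85, and 3.22, 3.18 and 3.20 in E75, E77 and E90. On that scale all H libraries were above all P and E libraries, and C84 stayed apart from C79 and C85. The summed caudal Hox level was 10.03 FPKM in C84, 44.0 in C79 and 33.9 in C85. It was lowest in H4 (3.41 FPKM), where the family mean was 3.43. It was highest in E90 (91.1) and E77 (82.9), where the family means were 3.20 and 3.18. The part of the Hox level in the position of C84 was not tested.

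**Figure D3:**
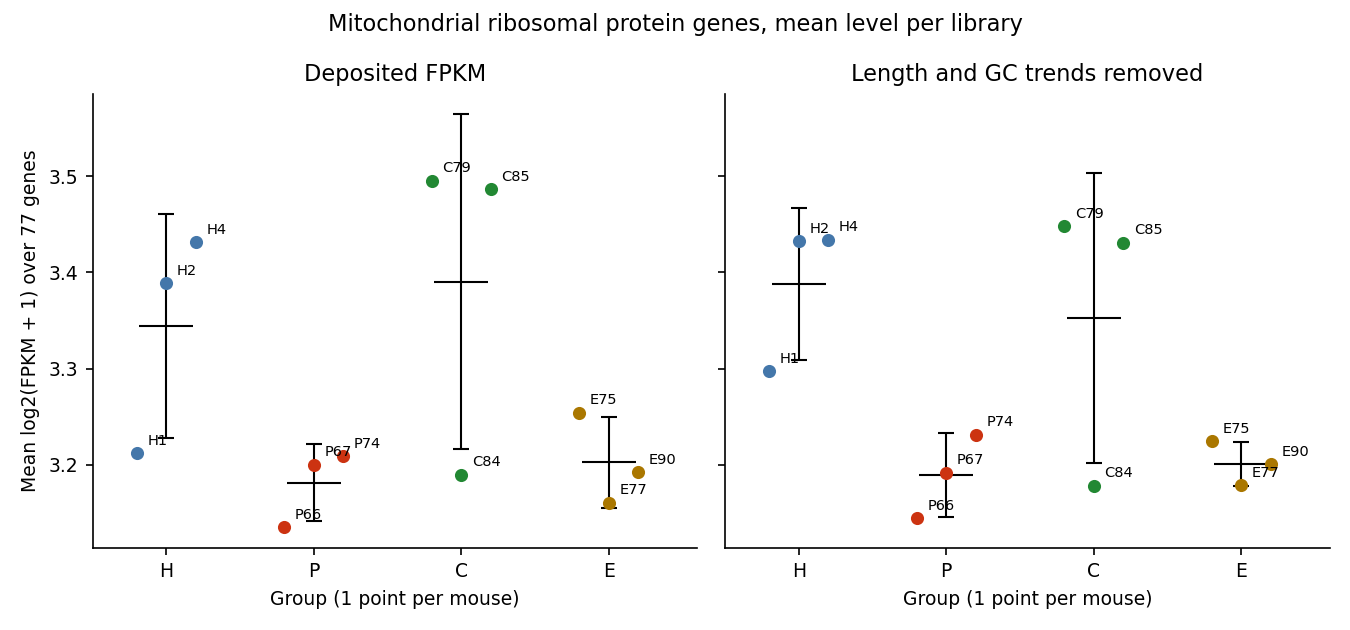
Mean log2(FPKM + 1) over the 77 genes in each mouse (points), with group means and SD (bars), from the deposited FPKM (left) and with length and GC trends removed (right); the y axis does not start at 0. In both panels C79 and C85 are far above C84 and the P and E libraries lie low, and H1 lies at the level of P in the left panel only.

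C was set against P to see how the cord of treated model mice differed from that of mice fed PBS. Fitted values were above 0 for 64 of 77 genes (83.1%), against 45.4% of all genes tested, and the median was 0.16, against -0.02 over all genes. None of the genes passed by limma at an adjusted p under 0.05, where 1 of all 18118 genes did (0.00552%). At an unadjusted p under 0.05, 28 members passed by limma, 27 of them higher (35.1%, against 6.23% of all genes) and 1 lower (1.30%, against 3.71%). limma-voom on recovered reads also called 0. All C values lay above all P values for 16 members (20.8%, against 8.33%) and below for 2 (2.60%, against 8.77%).

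Leaving out C84 moved the median to 0.26, and leaving out C85 moved it to 0.10. No member passed in any of the 19 alternatives. P entered this comparison and that with H, so values below H in P and values above P in C are not independent of each other.

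Mrpl46 had the smallest p among genes higher in C (change 0.40 ± 0.09, limma, Benjamini-Hochberg adjusted p = 0.395), with the values given above. Mrpl28, of the large subunit, was next. It was at 17.3, 19.9 and 19.1 FPKM in P66, P67 and P74, at 29.8, 21.8 and 28.3 in C79, C84 and C85, and at 22.7, 23.3 and 25.4 in H1, H2 and H4. Its C values did not overlap with P, and C84 was the lowest of them (change 0.47 ± 0.11, limma, Benjamini-Hochberg adjusted p = 0.395).

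In the other direction Mrps2, a small-subunit protein with a bacterial counterpart, was at 10.8, 11.4 and 11.1 FPKM in P66, P67 and P74 and at 9.502, 9.94 and 8.51 in C79, C84 and C85. All C values were lower (change -0.23 ± 0.08, limma, Benjamini-Hochberg adjusted p = 0.419). Mrpl45, at the membrane side of the large subunit, was at 13.8 ± 0.340 FPKM in P and 12.3 ± 0.676 in C (change -0.16 ± 0.08, limma, Benjamini-Hochberg adjusted p = 0.511). The genes named in this paragraph and the last did not pass.

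For E against P, which asks the same of the group read as edaravone, values were close to those of P. The median change was 0.02, against 0.01 over all genes, and 46 of 77 genes were above 0 (59.7%, against 53.7%). By limma 0 members passed at an adjusted p under 0.05, as did 0 of all genes (0%), and limma-voom called 0. At an unadjusted p under 0.05, 0 members passed, against 4.91% of all genes. E lay above P without overlap for 3 members (3.90%, against 4.81%) and below for 2 (2.60%, against 4.2%).

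The changes in E ranged from -0.28 to 0.35. Mrpl38 of the large subunit was at 12.8 ± 0.983 FPKM in P and 14.7 ± 2.00 in E (change 0.18, 95% interval -0.03 to 0.38), and Mrpl46 was at 11.7 ± 1.19 and 13.2 ± 0.743 (change 0.17, 95% interval -0.03 to 0.36). Lower in E were Mrpl45 (change -0.12, 95% interval -0.29 to 0.04) and Mrps9 of the small subunit (change -0.13, 95% interval -0.32 to 0.05). None of the 4 passed (limma, Benjamini-Hochberg adjusted p = 0.998 for each). These intervals do not show that E and P were alike for these genes.

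C was compared with E directly. Fitted values were above 0 for 64 genes (83.1%, against 44.7% of all genes), with a median of 0.19, against -0.02. By limma 0 members passed, against 31 of all genes (0.171%), and limma-voom called 0. At an unadjusted p under 0.05, 18 were higher in C (23.4%, against 5.57%) and 1 lower (1.30%, against 5.41%). C lay above E without overlap for 12 members (15.6%, against 6.61%) and below for 2 (2.60%, against 10.3%).

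Mrpl28 was at 20.6, 18.0 and 17.6 FPKM in E75, E77 and E90, all below its C values (change 0.48 ± 0.11, limma, Benjamini-Hochberg adjusted p = 0.155). Without C84 it passed (change 0.61, adjusted p = 0.0472 by limma), so the count of calls was then 1. Mrpl54, a large-subunit protein specific to mitochondria, was at 15.2, 13.6 and 17.9 FPKM in C79, C84 and C85 and at 12.9, 8.03 and 9.17 in E75, E77 and E90. C84, like C79 and C85, was above every P and E library (change 0.60 ± 0.17, limma, Benjamini-Hochberg adjusted p = 0.239). Lower in C, and also not passing, were Mrps18b (change -0.22 ± 0.10, limma, Benjamini-Hochberg adjusted p = 0.439) and Mrps2 (change -0.14 ± 0.08, limma, Benjamini-Hochberg adjusted p = 0.547).

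Against the healthy group, the family's median was near that of all genes in C and below it in E. The family mean of C84 (3.19) nevertheless lay within the range of E (3.16 to 3.25). In C against H the median was 0.04, against 0.07 over all genes, with 31 genes below 0 (40.3%, against 36.5% of all genes) and 46 above (59.7%, against 63.5%). Mrps6 alone passed, higher in C (change 0.78 ± 0.21, limma, Benjamini-Hochberg adjusted p = 0.0438), which is 1.30% of the family against 8.31% of all genes. That call was lost in 12 of 19 alternatives (count 0 without H1, H2, P67, C79, C85, E75, E77 or E90), and the median was -0.05 with median-ratio scaling, -0.04 with trends removed and 0.12 without C84.

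In E against H, 61 genes were below 0 (79.2%, against 35.9% of all genes) and the median was -0.16, against 0.08 over all genes. There 3 genes fell (3.90% of the family, against 2.15% of all genes) and 1 rose (1.30%, against 11.1%), together 5.19% against 13.2%. Mrpl46 (-0.32 ± 0.09, adjusted p = 0.0374), Mrpl34 (-0.63 ± 0.19, adjusted p = 0.0457) and Mrps23 (-0.36 ± 0.11, adjusted p = 0.0483) fell and Mrpl33 rose (0.37 ± 0.09, adjusted p = 0.0183), all by limma with Benjamini-Hochberg adjustment. Mrps23, a small-subunit protein specific to mitochondria, was at 22.2, 27.3 and 24.4 FPKM in H1, H2 and H4 and at 19.5, 18.8 and 18.5 in E75, E77 and E90. Median-ratio scaling gave 9 that fell and 1 that rose (13.0% called, against 12.2% of all genes) with a median of -0.27, and removal of the trends 7 and 0 (9.09%, against 12.8%). The count was 0 without H2, E77 or E90, 1 without H4 or P67, 2 without C85 and 8 without C84. No test compared the change in C with the change in E against H, other than the fit of C against E.

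In P against H and in C against P, changes of the family were largest for genes with short exon unions. For the 27 genes with an exon union under 1700 bases the median change in P against H was -0.32 and that in C against P 0.34. All tested genes of that length had medians of -0.00348 and 0.11. For the 19 genes from 1700 to under 3000 bases the medians were -0.05 and 0.13. All tested genes of that length had medians of 0.04 and 0.04. For the 31 genes of 3000 bases or more the medians were -0.12 and 0.09, against 0.09 and -0.04 for all genes of that length. In P against H the median change of the middle class was thus smaller in size than that of the long class. The change there did not fall steadily with length. Each of the 27 short genes was above 0 in C against P, against 65.4% of all genes of that length, and 15 had an unadjusted p under 0.05 by limma (55.6%, against 21.6%). Of the 31 long genes 24 were above 0 (77.4%, against 36.2%).

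Across the 77 genes Spearman's rho between exon length and change was 0.47 in P against H and -0.53 in C against P. This is a description over genes measured in the same libraries, with no p. The slope of all genes' values on exon length also differed between libraries, at -0.050 and -0.056 in C79 and C85, 0.010 in C84 and -0.035 in H4, against -0.003 to 0.038 in the others. With length and GC trends removed, the family's median was -0.21 in P against H and 0.16 in C against P, about the same as without. Members under 1700 bases lay on average 0.35, 0.37 and 0.27 above their own means over the 12 libraries in C79, C85 and H4. In H2 they lay 0.17 above with a slope of -0.003. E75 and P66 had similar slopes (0.013 and 0.015), with short members at -0.002 and -0.22. What sets the slope was not tested.

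**Figure D4:**
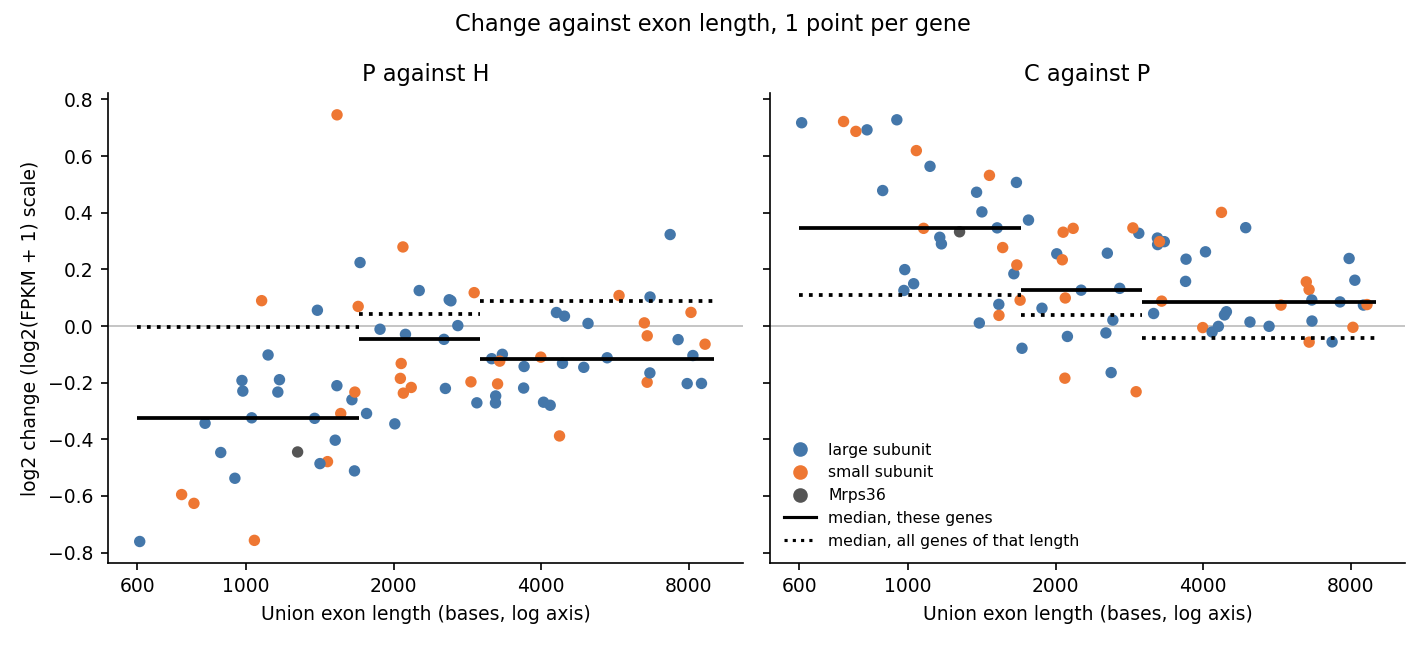
Fitted log2 change (y axis, log2(FPKM + 1) scale) against union exon length (x axis, log scale, bases) in P against H and C against P, 1 point per gene, coloured by subunit. Solid lines are the family's medians within 3 length classes and dotted lines the medians of all tested genes of that length. Under 1700 bases the family is at -0.32 and 0.34. From 1700 to under 3000 bases it is at -0.05 and 0.13, and from 3000 bases on at -0.12 and 0.09.

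Exons of 32 of the 77 genes overlap those of another annotated gene, on the opposite strand in most cases. The library protocol marks the second strand, but no source used here states the strand setting of the counting, and reads of such pairs cannot be told apart. Mrps25 shares 69.8% of its exon bases with Nr2c2 on the other strand, and Mrps34 shares 63.4% with Mapk8ip3 on the other strand and 37% with Nme3 on the same strand, which no strand setting separates, so their levels are uncertain. Mrpl46 and Mrps11 overlap by 173 bases (12.2% of the exons of Mrpl46), and Mrps11 changed by -0.22 ± 0.10 in P against H (limma, Benjamini-Hochberg adjusted p = 0.175). Mrpl36 overlaps by 30 bases with Ndufs6, a complex I gene, which fell by 0.80 (limma, Benjamini-Hochberg adjusted p = 0.0316), whereas Mrpl36 was at -0.23 ± 0.13 (limma, Benjamini-Hochberg adjusted p = 0.224). The 32 overlapping genes had a median of -0.18 and the 45 others -0.19 in P against H, with 2 fallen in each set. Both genes that rose, Mrps6 and Mrpl33, were among the overlapping ones, and 0 of the others rose. Mrps6 shares 19.9% of its exon bases with Gm49711 and 10.4% with Slc5a3, and Mrpl33 shares 3.56% with Gm43809, all on the same strand. No FPKM is listed for Gm49711, Gm43809 or Nme3 in this series. Values of Mrpl23, Mrpl48 and Mrps36 are uncertain for another reason, since processed pseudogenes of these genes are annotated. Pseudogenes of the 77 genes were not searched for systematically, so other members may share this limit.

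Other lists of the mitochondrial translation machinery were chosen by function and are given for P against H. For scale, 15.5% of all genes tested passed by limma in that comparison (3.26% fell and 12.2% rose), and 32.7% had an unadjusted p under 0.05. Of 6 further ribosome subunits without an Mrp symbol (Dap3, Ptcd3, Chchd1, Aurkaip1, Gadd45gip1 and Oxa1l, the last the membrane insertase that binds the ribosome), 5 were below 0 and 0 passed by limma (median -0.07). Chchd1 was at -0.43 ± 0.20 and Aurkaip1, the 1 under 0.05 unadjusted, at -0.36 ± 0.14 (limma, Benjamini-Hochberg adjusted p = 0.160 and 0.0988). Of 17 tested translation factors, Gfm2, which splits the ribosome after translation, rose (0.46 ± 0.10, limma, Benjamini-Hochberg adjusted p = 0.0137), and the median was -0.02. Of 29 genes of ribosome assembly and rRNA modification 3 fell and 2 rose, with a median of -0.01. The fallen ones were Malsu1, an assembly factor of the large subunit (-0.40 ± 0.11, adjusted p = 0.0268), Mpv17l2 (-0.29 ± 0.08, adjusted p = 0.0370) and Mrm2, an rRNA methyltransferase (-0.33 ± 0.10, adjusted p = 0.0377), all by limma with Benjamini-Hochberg adjustment. Mterf3, an assembly factor that also binds mitochondrial DNA, rose (0.49 ± 0.13, limma, Benjamini-Hochberg adjusted p = 0.0273), as did Lactb2, an RNA-cutting enzyme (0.53 ± 0.16, limma, Benjamini-Hochberg adjusted p = 0.0447).

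The 17 mitochondrial aminoacyl-tRNA synthetases, which charge the tRNAs used by this ribosome, had 0 passing by limma and a median of 0.05. Of them 1 was under 0.05 unadjusted (5.88%, against 32.7% of all genes). The 20 genes of mitochondrial transcription, nucleoid and RNA processing had 0 passing by limma, 3 under 0.05 unadjusted (15%) and a median of 0.05. The 9 regulators of mitochondrial biogenesis had a median of 0.22, with 7 under 0.05 unadjusted (77.8%), of which 1 fell and 2 rose by limma after adjustment. Esrra, a nuclear receptor that acts with the coactivator PGC-1alpha, fell (-0.78 ± 0.13, limma, Benjamini-Hochberg adjusted p = 0.0036). Myc rose by 1.14 ± 0.14 (limma, Benjamini-Hochberg adjusted p = 0.000724) and Gabpa, the ETS factor named above, by 0.38 ± 0.11 (limma, Benjamini-Hochberg adjusted p = 0.0386).

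The nuclear genes of the respiratory chain, whose proteins assemble with the products of the mitochondrial ribosome, had a median further from 0 than the ribosome genes. Of 80 tested, 35 fell and 0 rose in P against H, with a median of -0.55 and 83.8% under 0.05 unadjusted (32.7% of all genes). In C against P the median was 0.45, with 0 passing by limma and 52 under 0.05 unadjusted (65%, against 9.95% of all genes). Ndufs8, Ndufa11 and Ndufb9, all of complex I, fell by 0.57, 0.74 and 0.75 in P (limma, Benjamini-Hochberg adjusted p = 0.0175, 0.0186 and 0.0206). The 81 cytosolic ribosomal protein genes had 0 passing by limma in P against H, 5 under 0.05 unadjusted (6.17%) and a median of -0.15. In C against P their median was 0.53, with 0 passing by limma and 55 under 0.05 unadjusted (67.9%). Of 12 mitochondrially encoded protein genes tested, mt-Nd3 fell (-0.89 ± 0.26, limma, Benjamini-Hochberg adjusted p = 0.0423; list median -0.35). The 2 mitochondrial ribosomal RNAs had 0 passing by limma and 0 under 0.05 unadjusted (median -0.26), and their level in RNA selected for poly(A) tails need not follow their amount in the cell. No test set one list against another.

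By library, the respiratory chain genes averaged 5.35 in H1 and 5.62 in each of H2 and H4, 4.92 to 5.07 in P, 5.62, 5.06 and 5.64 in C79, C84 and C85, and 4.97 to 5.17 in E. The cytosolic ribosomal list was at 5.15, 5.56 and 5.81 in H1, H2 and H4, 5.22 to 5.40 in P, 5.99, 5.42 and 6.12 in C79, C84 and C85, and 5.25 to 5.59 in E. Both lists, like the mitochondrial ribosome, were therefore high in C79 and C85 and low in C84. The synthetases were at 2.15 to 2.30 in all 12 libraries.

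**Figure D5:**
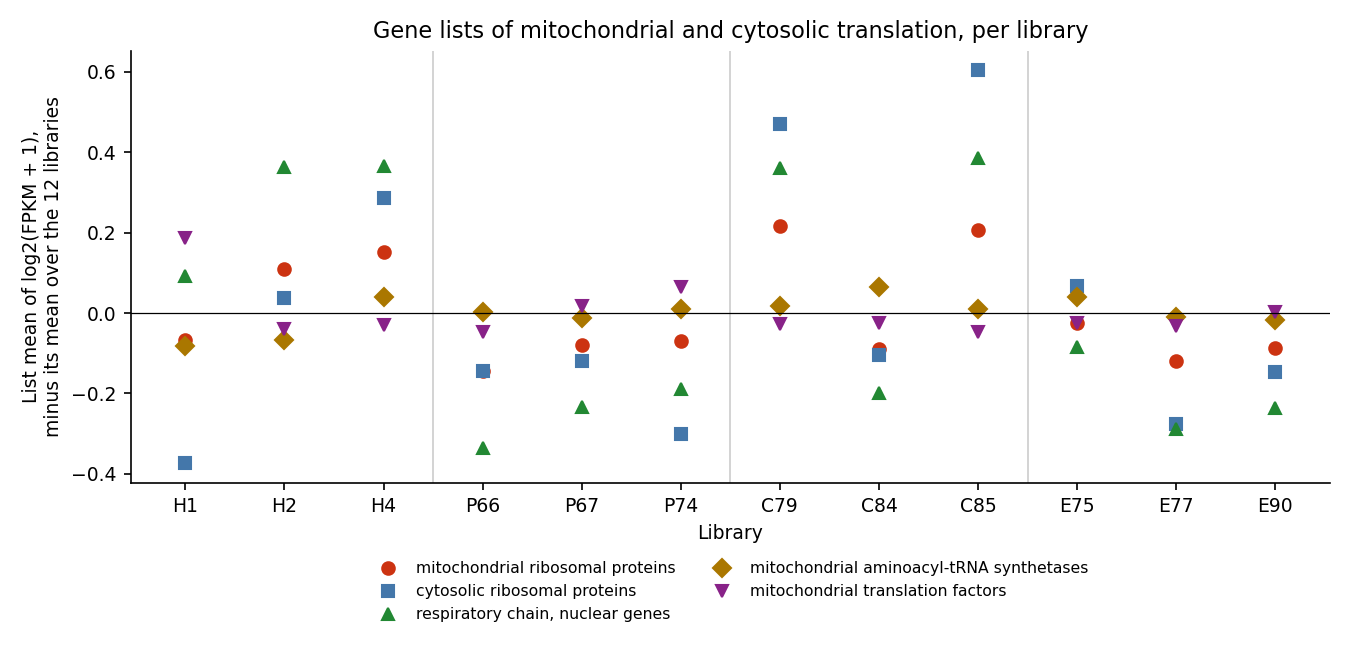
Mean log2(FPKM + 1) of 5 gene lists in each library, minus the mean of that list over the 12 libraries (y axis), with libraries of H, P, C and E from left to right. Mitochondrial ribosomal, cytosolic ribosomal and respiratory chain genes are high in C79 and C85 and low in C84, P and most of E, while the synthetases stay near 0.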

How the data were processed

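Libraries were made from poly(A)-selected RNA with a buffer that marks the second strand, per the labels' protocols. The authors deposited FPKM values per Ensembl gene, 1 table a group. The submitters' processing notes name cutadapt, HISAT2, featureCounts and GRCm38 with no versions or roles. Whether each mouse was sampled once is taken from the labels, which give 3 mice a group, so p-values measure the spread between mice.

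FPKM values were multiples of 1 read for 95.2 to 95.7% of low values in a library (tolerance 0.02, up to 50 reads, given the GENCODE M21 exon length), from which reads were recovered for the filter and for 1 alternative. Of 33906 identifiers 33829 matched GENCODE M21. Genes with at least 10 recovered reads (0.54 CPM in a library of median depth) in at least 3 libraries and 15 in all were kept, and 945 genes were listed at 0 in every library. limma 3.58.1 in R 4.3.3 was fitted to log2(FPKM + 1) for 18118 genes with 1 mean a group over the 12 libraries (8 residual degrees of freedom, trended and robust moderation), 2-sided, with Benjamini-Hochberg adjustment over all genes tested in each of 6 comparisons and a threshold of 0.05. Fold changes are differences of log2(FPKM + 1), which understate changes of low genes, and errors are SE unless SD is stated. Intervals of 95% come from limma. The script was tested on simulated data.

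Members and lists were chosen with earlier results of these data known. Named were, by rule, members passing in P against H (or the 4 of smallest p in a direction), the 2 of smallest p in each direction of the other treatment comparisons, the 3 highest and 3 lowest by level, and up to 3 passing genes of each list. Other genes, the exon length bounds (1700 and 3000 bases), the subunit classes, the motifs and the library orders were chosen after values were seen, and the NRF1 and YY1 letters were shortened after longer ones had been searched and had matched fewer members. Lists were described by counts and medians with no set test. Trends of length and GC were removed by lowess (span 0.3), with GC taken from the longest transcript because no genome was used here. No column of another sample was present.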

Additional observations from a re-analysis of the deposited data

How the results depend on the processing

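Limits. With 3 mice a group, calls near the threshold depended on single libraries and on how libraries were scaled, and genes with few reads (24 at the lowest) have wide counting error. No paired analysis was possible because the groups share no replicate numbers.

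The number of members called in P against H (6) was 1 with no filter, 16 with median-ratio scaling and 13 with length and GC trends removed, and 1 to 13 over the fits that left out 1 library. In C against H (1) it was 0 with no filter, with median-ratio scaling, with only the groups compared in the fit and with trends removed, and 0 to 1 when 1 library was left out. In E against H (4) it was 1 with no filter, 10 with median-ratio scaling, 2 with limma-voom, 1 with only the groups compared and 7 with trends removed, and 0 to 8 when 1 library was left out. In C against E (0) it was 0 to 1 when 1 library was left out. The calls at other settings were within 1.5 times those reported, and C against P and E against P gave 0 in all 19 alternatives. The cause of these moves was not tested.

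The family's median change moved with median-ratio scaling from -0.19 to -0.29 in P against H, from -0.16 to -0.27 in E against H and from 0.04 to -0.05 in C against H, the last also turning to -0.04 with trends removed. These moves were at most about the spread of its mean level between replicates (SD 0.109). Leaving out 1 library gave -0.21 to -0.12 in P against H, 0.10 to 0.26 in C against P, -0.02 to 0.04 in E against P, -0.05 to 0.12 in C against H, -0.24 to -0.10 in E against H and 0.12 to 0.27 in C against E. No named gene changed sign.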
